A study of Homo sapiens with 6 samples.

Results

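The thrombospondins THBS1, THBS2, THBS3, THBS4 and COMP, and the receptors CD36 and CD47, were examined in H1155 cells, a human neuroendocrine large cell lung cancer line that grows as floating clusters. They are 7 genes of the 58735 in the count table. They were picked by gene name around THBS1, which was itself selected on its measured level and its fold change between the same libraries, so the values of THBS1 are given as a description without a test. The other 6 belong to the set by name alone. RNA-Seq was done on untreated cells in serum-containing medium, with 3 WT and 3 GFI1-KO libraries by their labels. GFI1, a zinc finger repressor of transcription, was targeted by CRISPR/Cas9 with paired guides against its promoter region, and single GFP-positive cells were sorted and grown into clones. Whether the 3 GFI1-KO libraries stem from 1 clone or several is not given in the sources used here, and nothing says that the libraries of a group came from separate cultures, so p-values measure only the spread between these libraries. GFI1 had 153, 106 and 125 counts in WT and 174, 188 and 170 in GFI1-KO (log2FC 0.31, SE 0.12, edgeR adjusted p = 0.0273, and log2FC -0.03, adjusted p = 0.841, after a correction for GC content and length). Here log2FC is the base 2 logarithm of the ratio of GFI1-KO to WT, given with its standard error (SE). Its counts were thus not lower where it was targeted, so that they give no check of the labels, and directions are given as the labels name the groups.

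Thrombospondins are large secreted glycoproteins that carry calcium and bind other matrix proteins, growth factors and cell surface receptors. THBS1 and THBS2 form trimers and carry type 1 repeats, which bind CD36 and, in THBS1, activate latent TGF-beta. THBS3, THBS4 and COMP form pentamers and lack those repeats. CD47 binds the C-terminal region of THBS1 and is also the ligand of SIRPA, through which it signals to phagocytes. CD36 is a scavenger receptor and fatty acid transporter through which THBS1 inhibits endothelial cells. THBS1 is best known as an inhibitor of blood vessel growth and as a modulator of cell adhesion.

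THBS1 (ENSG00000137801) lies on the plus strand of chromosome 15, from 39581079 to 39599466 in GRCh38, and its canonical transcript has 22 exons. THBS4 (ENSG00000113296) lies on the plus strand of chromosome 5, from 79991311 to 80083287. CD47 (ENSG00000196776) is on chromosome 3, minus strand, between 108043094 and 108091862. The promoters of these 3 genes are shown because THBS1 and THBS4 had the largest changes of the set and CD47 was the most abundant receptor. Each sequence runs 5′ to 3′ from 250 bases before to 50 bases after a RefSeq start (GRCh38.p14), and capitals mark AATC or its reverse complement GATT, the core of the GFI1 binding motif. THBS1 is taken from chr15:39580829-39581128 (plus strand), THBS4 from chr5:79991082-79991381 (plus strand) and CD47 from chr3:108090982-108091281 (minus strand).
THBS1: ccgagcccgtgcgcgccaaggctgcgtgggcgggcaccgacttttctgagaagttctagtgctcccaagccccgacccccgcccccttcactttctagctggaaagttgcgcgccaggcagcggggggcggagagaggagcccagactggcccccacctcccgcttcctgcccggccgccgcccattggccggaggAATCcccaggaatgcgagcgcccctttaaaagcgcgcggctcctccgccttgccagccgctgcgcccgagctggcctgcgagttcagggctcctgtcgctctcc
THBS4: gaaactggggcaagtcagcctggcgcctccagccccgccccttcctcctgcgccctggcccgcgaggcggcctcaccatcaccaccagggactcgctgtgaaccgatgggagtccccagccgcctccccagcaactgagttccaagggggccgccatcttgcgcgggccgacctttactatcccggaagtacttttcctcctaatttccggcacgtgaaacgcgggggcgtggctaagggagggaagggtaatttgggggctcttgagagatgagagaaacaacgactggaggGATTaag
CD47: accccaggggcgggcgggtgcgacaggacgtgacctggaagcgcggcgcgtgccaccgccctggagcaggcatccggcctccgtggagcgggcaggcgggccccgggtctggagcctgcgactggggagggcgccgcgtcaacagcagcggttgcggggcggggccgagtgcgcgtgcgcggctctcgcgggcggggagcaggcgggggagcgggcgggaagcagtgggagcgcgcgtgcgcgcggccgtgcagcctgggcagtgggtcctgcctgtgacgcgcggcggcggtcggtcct
The THBS1 window held 1 match of the core and the THBS4 window 1. The CD47 window held 0. On either strand, 69.0% of the 34796 distinct promoters of the table held at least 1 such match, so that a match is no mark of these genes. The THBS1 window had a GC content of 70.0% with 29 CG dinucleotides and the CD47 window 79.0% with 45, against medians of 58.7% and 14 over all promoters. All 7 genes matched an entry by symbol. The table lists a second start of THBS4 further into the gene, at chr5:80035773-80036072, with 3 matches in its window.

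THBS1 was the only abundant thrombospondin of the cells, and its transcript was nearly 4 times lower in the GFI1-KO libraries. THBS4, which was scarce, was lower by about the same factor, and THBS3 was lower by a smaller one. CD47 was abundant in both groups and was not called, unless the counts were corrected for GC content, which made it higher in GFI1-KO. THBS2, COMP and CD36 were close to the detection limit in every library.

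THBS1 had 7240, 6726 and 7130 counts in the WT libraries and 1957, 1990 and 2006 in the GFI1-KO libraries. After scaling for library size, these were 7413, 7445 and 7483 normalized counts in WT against 1865, 1886 and 1888 in GFI1-KO, where a normalized count is the count divided by the TMM effective library size relative to its mean. The 2 groups lay far apart, and libraries of the same group were nearly alike. The means were 7447 ± 35.3 (SD, n = 3) and 1880 ± 12.8 (SD, n = 3), coefficients of variation of 0.475% and 0.679%. Counting error alone is larger (95% Poisson interval of the 7240 counts of WT 1, 7074 to 7409). These standard deviations are therefore no guide to the precision of the means. The log2FC was -1.99 (SE 0.03, 95% confidence interval -2.06 to -1.92), a level 3.96-fold higher in WT. Over 18 other fits, 6 of which left out a library, it stayed between -2.03 and -1.86.

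In FPKM, the count scaled to gene length and to library size, THBS1 had 48.8, 49.1 and 49.3 in WT and 12.3, 12.4 and 12.4 in GFI1-KO. That placed it at percentile 96.0 of the tested genes in WT and at percentile 74.3 in GFI1-KO. Of the 223 tested genes whose WT mean of normalized counts was at least that of THBS1, THBS1 had the lowest log2FC. Of the 11859 tested genes with a mean of at least 100 normalized counts, 65 had a log2FC at or below that of THBS1, itself included. These ranks describe the value by which THBS1 was selected.

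**Figure D1:**
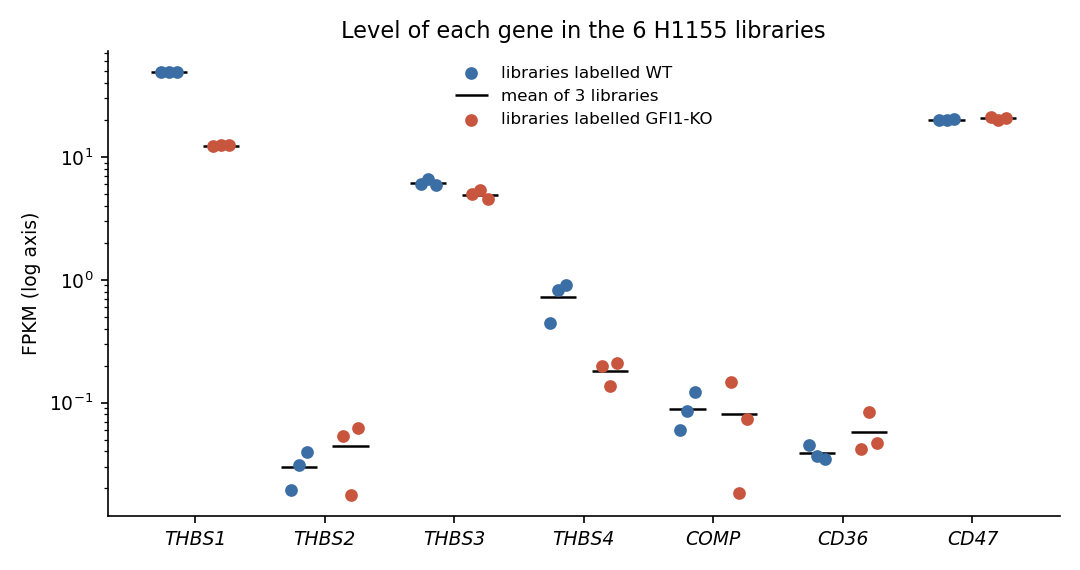
FPKM of each gene (log axis) in the 3 libraries labelled WT (blue points) and the 3 labelled GFI1-KO (red points), with black lines at the means. THBS1 lies near 49.1 in WT and 12.4 in GFI1-KO, CD47 near 20.1 and 20.8, and THBS2, COMP and CD36 lie below 0.15 in every library.

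THBS3 (ENSG00000169231, chromosome 1, minus strand, 155195588 to 155209051) encodes a pentameric thrombospondin found in cartilage and bone. It had 466, 503 and 451 normalized counts in WT and 380, 410 and 346 in GFI1-KO. Every WT library lay above every GFI1-KO library, by a narrow margin. The means were 473 ± 26.4 (SD, n = 3) and 379 ± 32.0 (SD, n = 3), a log2FC of -0.32 (SE 0.08, 95% confidence interval -0.48 to -0.16), and the gene was called lower by edgeR's quasi-likelihood test (Benjamini-Hochberg adjusted p = 5.56e-04). Leaving out single libraries gave values between -0.38 and -0.25. Of the 4623 exon bases of THBS3, 1198 overlap THBS3-AS1 on the opposite strand, which had 39, 18 and 27 counts in WT and 39, 50 and 49 in GFI1-KO, and 146 overlap MTX1, also on the opposite strand, which was higher in GFI1-KO (log2FC 0.77, edgeR adjusted p = 4.58e-08). The strand setting of the counting is not given in the sources used here, so that reads of THBS3 and of these genes may not be told apart.

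THBS4, a pentameric thrombospondin of tendon, muscle and nerve, had 33.8, 63.1 and 69.3 normalized counts in WT and 15.2, 10.4 and 16.0 in GFI1-KO. The WT libraries spread over a wide range, with WT 1 well below the other two, and still did not overlap GFI1-KO. Means were 55.4 ± 19.0 (SD, n = 3) and 13.9 ± 3.02 (SD, n = 3). The log2FC was -1.98 (SE 0.30, 95% confidence interval -2.61 to -1.36, edgeR adjusted p = 1.95e-06). The interval is far wider than that of THBS1, and the counts summed over a group were only 156 in WT (95% Poisson interval 132 to 182, counting error only) and 44 in GFI1-KO (32.0 to 59.1).

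THBS2 (ENSG00000186340, chromosome 6, 169215780 to 169254044), the closest relative of THBS1, had 2, 3 and 4 counts in WT and 6, 2 and 7 in GFI1-KO. COMP (ENSG00000105664, chromosome 19, 18782773 to 18791314), the cartilage oligomeric matrix protein, had 3, 4 and 6 counts in WT and 8, 1 and 4 in GFI1-KO. CD36 (ENSG00000135218, chromosome 7, 80369575 to 80679277) had 8, 6 and 6 counts in WT and 8, 16 and 9 in GFI1-KO. All 3 fell below the filter on low counts and were not tested in the main edgeR fit, and in each the groups overlapped. A floor of 3 counts, set by choice, corresponded to between 2.82 and 3.32 normalized counts, and some counts of THBS2 and COMP lay below it. None of the 3 genes was called with DESeq2 or with no filter, where all 7 genes of the set were kept. A small difference in any of them was not detectable at this depth. THBS2 also overlaps an antisense gene, THBS2-AS1, over 2249 of its 7197 exon bases in GENCODE, with 0 counts in each WT library and 5, 3 and 5 in GFI1-KO.

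CD47 had 2729, 2704 and 2779 normalized counts in WT and 2910, 2737 and 2849 in GFI1-KO. GFI1-KO 2 lay within the WT range, and the other two lay above it. The means were 2737 ± 38.3 (SD, n = 3) and 2832 ± 87.9 (SD, n = 3), a log2FC of 0.05 (SE 0.04, 95% confidence interval -0.03 to 0.12, edgeR adjusted p = 0.225). This interval excludes a fall of CD47 of the size seen for THBS1 under the same scaling. The value depended on GC content, as described further on.

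Of the 7 genes, 4 passed the filter on low counts, and 3 of these were called lower, 0 higher and 1 was not called. Over all 17514 tested genes, 35.9% were called lower and 36.5% higher at the adjusted p threshold of 0.05, and 74.5% had groups that did not overlap, as 3 of the 4 tested genes here did. With shares of this size a call is no rare event, and with THBS1 chosen on its fold change the count of 3 is a description only.

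The order of the genes by FPKM differed between the groups. In WT it was THBS1 (49.1 ± 0.233, SD, n = 3), CD47 (20.1 ± 0.281), THBS3 (6.18 ± 0.345), THBS4 (0.726 ± 0.248) and COMP (0.0895 ± 0.0315), each separate from the next in every library, followed by CD36 (0.0391 ± 0.00559) and THBS2 (0.0300 ± 0.0102), whose ranges overlapped. In GFI1-KO, CD47 came first (20.8 ± 0.645, SD, n = 3), followed by THBS1 (12.4 ± 0.0841), THBS3 (4.95 ± 0.418) and THBS4 (0.182 ± 0.0396). There, the ranges of THBS4 and COMP overlapped, as did those of COMP, CD36 and THBS2. The order was the same when library totals replaced the TMM effective library sizes.

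The summed FPKM of the 5 thrombospondins was 55.4, 56.6 and 56.3 in the WT libraries and 17.7, 18.0 and 17.3 in the GFI1-KO libraries. THBS1 made up 87.5% ± 0.691 (SD, n = 3) of the WT sum and 70.2% ± 1.44 (SD, n = 3) of that in GFI1-KO. The share of THBS3 was 11.0% ± 0.565 in WT and 28.0% ± 1.86 in GFI1-KO (SD, n = 3 each), although its own level was lower there. The WT cells held 2.44 ± 0.0274 times as much THBS1 as CD47 by FPKM, and the GFI1-KO cells 0.597 ± 0.0217 times as much (SD, n = 3 each). Ligand transcripts thus outnumbered those of the receptor in one group and not in the other, by values that include the one THBS1 was selected on.

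**Figure D2:**
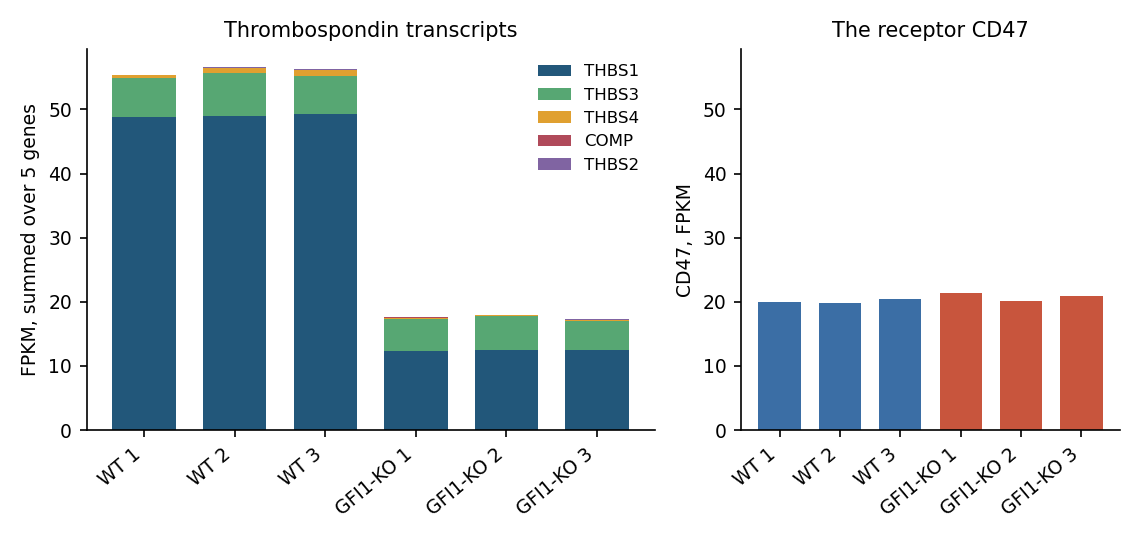
Left, FPKM of the 5 thrombospondins stacked for each library (THBS1 dark blue, THBS3 green, THBS4 orange, COMP and THBS2 too low to be seen); right, FPKM of CD47 in the same libraries on the same scale (WT blue, GFI1-KO red). The thrombospondin sum lies between 55.4 and 56.6 in WT and between 17.3 and 18.0 in GFI1-KO, while CD47 stays between 19.8 and 21.4.

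Fold changes in these libraries moved with the GC content of the transcripts. Across the 17415 tested genes with a known GC content, Spearman's rho between GC content and log2FC was 0.587, a description across genes that share the same 6 libraries. After a correction for GC content and length within each library it was 0.0268. CD47, with a GC content of 37.7%, stood apart from its like: the 803 tested genes within 1 percentage point of it had a median log2FC of -0.55, and 92.0% of them had a lower value than CD47. After the correction its log2FC was 0.68 (SE 0.03, edgeR adjusted p = 4.57e-15), a call of higher where there had been none. After the correction, 31.6% of the tested genes were called higher and 28.9% lower. Whether the relation with GC content is technical was not tested, and the call of CD47 depends on this choice.

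The other tested genes kept their direction. THBS3, with a GC content of 56.3%, was at -0.32 where the 1081 genes of like GC content had a median of 0.39, and moved to -0.67 with the correction (edgeR adjusted p = 2.53e-08). THBS4 moved to -2.09 (edgeR adjusted p = 2.25e-06). THBS1, near the middle of the GC range with 47.8%, moved only to -1.86, and 1.68% of the 1309 genes of like GC content had a lower log2FC.

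**Figure D3:**
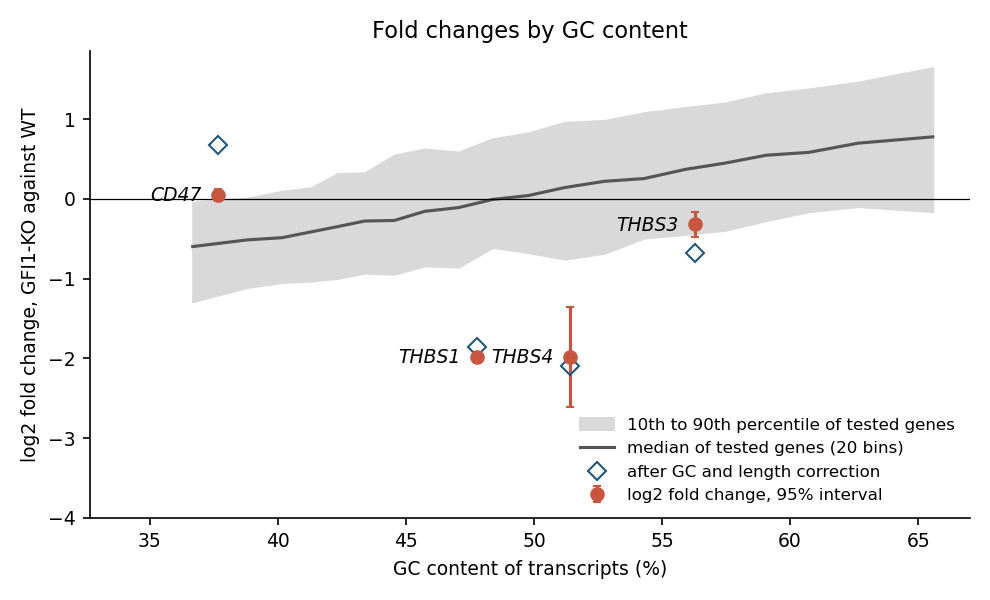
Log2 fold change of GFI1-KO against WT (y axis) against the GC content of the transcripts in percent (x axis). The line and grey band give the median and the 10th to 90th percentile of tested genes in 20 bins of GC content, red points the uncorrected values with 95% confidence intervals and open diamonds the values after correction. CD47 moves from 0.05 to 0.68, THBS3 from -0.32 to -0.67, and THBS1 and THBS4 stay near -2.

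The surroundings of THBS1 were examined in the same counts. FSIP1, a gene of sperm flagella on the opposite strand, shares 448 of the 9158 exon bases of THBS1. It had 110, 84 and 102 counts in WT and 42, 51 and 37 in GFI1-KO, a log2FC of -1.34 (SE 0.18, edgeR adjusted p = 3.28e-07). Its counts are a small part of those of THBS1, and whether they are reads of THBS1 itself cannot be told apart without the strand. THBS1-IT1, in an intron of THBS1 on the same strand, had 12, 5 and 11 counts in WT and 5, 0 and 1 in GFI1-KO, and THBS1-AS1 had 0 in every library. The next gene on the downstream side, GPR176, 199566 bases away, had 618 ± 37.3 normalized counts in WT and 665 ± 30.4 in GFI1-KO (SD, n = 3 each) and was not called (log2FC 0.10, 95% confidence interval -0.03 to 0.23, edgeR adjusted p = 0.144). On the upstream side C15orf53 had at most 3 counts in any library.

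The 5 genes with profiles closest to THBS1 over the 6 libraries, among 11212 protein-coding candidates, were GLDC (Euclidean distance 0.112 between centred log2 CPM values), GLI3 (0.113), ATP8A1 (0.115), PKHD1L1 (0.149) and FBLN2 (0.170). GLDC encodes the glycine decarboxylase of mitochondria, GLI3 a transcription factor of the hedgehog pathway, ATP8A1 a phospholipid flippase and FBLN2 the matrix protein fibulin. Their log2FC values lay between -2.06 and -1.98, a likeness that the ranking by distance itself brings about, so it is no separate result. Ranked by Pearson's r instead, the list held 5 other genes and shared 0 with the first, so the likeness rests on the measure.

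Besides CD36 and CD47, thrombospondins bind integrins, syndecans, LRP1 with calreticulin, and the calcium channel subunit CACNA2D1. Of 18 such receptors and partners, all tested, 13 were higher in GFI1-KO, 2 were lower and 3 were not called, with a median log2FC of 0.67 against 0.00 over all tested genes. Calls over all tested genes were 36.5% higher and 35.9% lower. SDC4, a heparan sulfate proteoglycan of focal adhesions, went from 625 ± 69.7 to 3059 ± 98.8 normalized counts (SD, n = 3 each), a log2FC of 2.29 (SE 0.05, edgeR adjusted p = 1.94e-22). CALR, the calcium-binding chaperone that serves with LRP1 as a receptor for THBS1, was higher by a log2FC of 0.76 (SE 0.03, edgeR adjusted p = 3.12e-17). ITGAV, the integrin subunit that binds the RGD motif of THBS1, was higher by 0.12 (SE 0.04, edgeR adjusted p = 0.0084), with overlapping groups. After the correction for GC content and length ITGAV was at 0.73 (edgeR adjusted p = 1.64e-15) and CALR at 0.40.

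The 2 genes called lower were CACNA2D1 (log2FC -1.34, SE 0.07, edgeR adjusted p = 1.04e-14), the gabapentin-binding subunit through which thrombospondins promote synapse formation, and ITGB1 (-0.11, SE 0.03, edgeR adjusted p = 0.00383). With the correction for GC content, 16 of the 18 were higher and 1 was lower, the median was 0.40, and 14 of the calls were kept. The corrected shares over all tested genes were 31.6% higher and 28.9% lower. ITGB1 changed sign to 0.38, SDC4 was at 2.21, and CACNA2D1, still called lower, moved from -1.34 to -0.70.

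**Figure D4:**
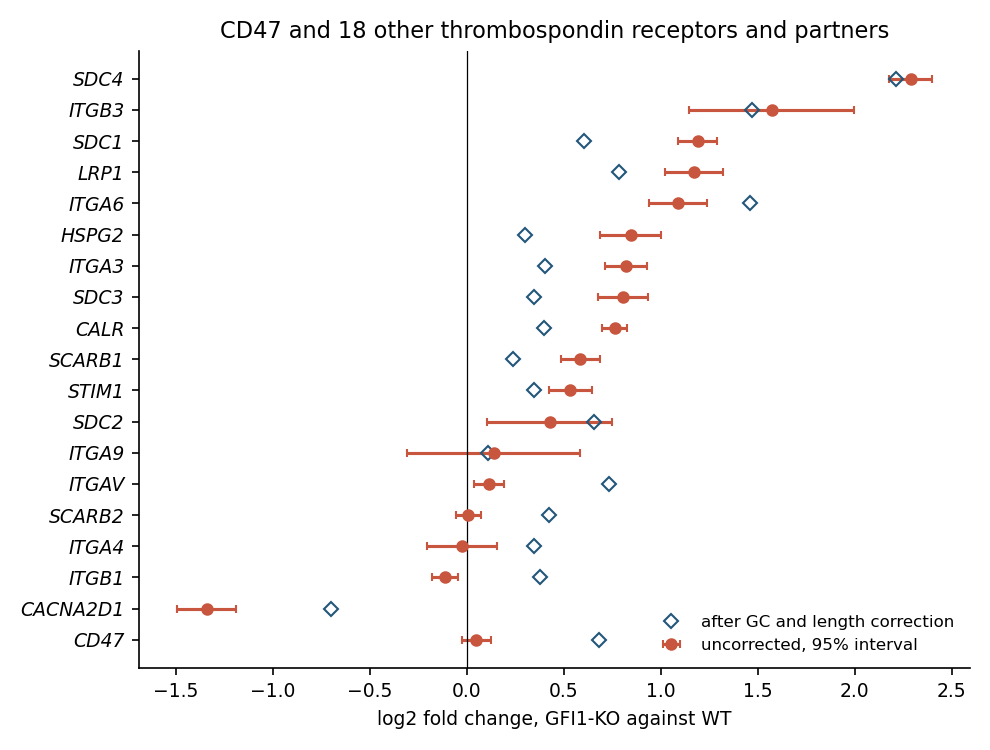
Log2 fold change of GFI1-KO against WT for CD47 (bottom) and 18 other receptors and partners of thrombospondins, uncorrected with 95% confidence intervals (red points) and after correction for GC content and length (open diamonds). SDC4 is highest at 2.29 and CACNA2D1 lowest at -1.34, and the correction moves ITGB1 from -0.11 to 0.38.

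CD47 has its own partners. SIRPA, the receptor by which phagocytes recognise CD47, was lower in the cells themselves, from 260 ± 13.8 to 190 ± 10.8 normalized counts (SD, n = 3 each), a log2FC of -0.45 (SE 0.10, edgeR adjusted p = 1.73e-04). QPCTL, the Golgi enzyme that forms the pyroglutamate of CD47 needed for SIRPA binding, was higher, with a log2FC of 0.82 (SE 0.12, edgeR adjusted p = 1.31e-06). After the correction for GC content QPCTL was at 0.25 and no longer called (edgeR adjusted p = 0.087), while SIRPA was at -0.73. The other 4 genes of this list, all of the SIRP family, did not pass the filter on low counts.

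THBS1 activates latent TGF-beta, and the latent complex was represented by 6 tested genes out of 9, with 5 called higher and 0 lower. Of all tested genes, 36.5% were called higher and 35.9% lower. TGFB1 went from 891 ± 32.6 to 2809 ± 67.2 normalized counts (SD, n = 3 each), a log2FC of 1.66 (SE 0.04, edgeR adjusted p = 1.32e-21). LTBP2, a latent TGF-beta binding protein, was higher by 1.19 (SE 0.13, edgeR adjusted p = 6.87e-09). LTBP3 and LTBP4 were higher by only 0.19 and 0.15, and with the correction for GC content both changed sign, to -0.43 and -0.48. TGFB1 and LTBP2 moved to 0.98 and 0.70 with it and stayed called higher. The list then held 3 genes called higher and 2 lower, where 31.6% of all tested genes were higher and 28.9% lower. NRROS, which anchors latent TGF-beta on myeloid cells, had 12.1 ± 4.93 normalized counts in WT (SD, n = 3) and 0 in every GFI1-KO library, and did not pass the filter on low counts. It was tested and called lower, making 1 lower in the list, with DESeq2, with no filter, and without WT 3 or any single GFI1-KO library. Without WT 3 the list had 3 genes called higher.

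Signalling of THBS1 through CD47 and CD36 is known for restraining nitric oxide and its second messenger cGMP. Of 8 genes of that route, 6 were tested, and 5 were lower and 0 higher, with a median log2FC of -0.80. The shares over all tested genes were 35.9% lower and 36.5% higher. The soluble guanylate cyclase subunits GUCY1B1, GUCY1A1 and GUCY1A2 had log2FC values of -1.17 (SE 0.08), -1.01 (0.19) and -0.64 (0.04), with edgeR adjusted p of 1.05e-12, 2.48e-05 and 9.53e-14. NOS2, the inducible nitric oxide synthase, was at -0.35 (SE 0.08, edgeR adjusted p = 3.28e-04). With the correction for GC content 3 of the 6 stayed lower, and GUCY1A2 moved to -0.08 (edgeR adjusted p = 0.068). The corrected share called lower over all tested genes was 28.9%.

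COMP itself was near 0, and 6 of 9 of its matrix partners were tested, with 4 higher and 2 lower, or 1 lower without GFI1-KO 3. Beside these counts, 36.5% of all tested genes were higher and 35.9% lower. FN1, which encodes fibronectin, went from 2328 ± 52.9 to 11356 ± 355 normalized counts (SD, n = 3 each), a log2FC of 2.29 (SE 0.04, edgeR adjusted p = 3.52e-26). COL9A2, a collagen of cartilage, was higher by 2.77 (SE 0.08, edgeR adjusted p = 3.54e-21) and MATN2, a matrilin, by 2.51 (SE 0.08, edgeR adjusted p = 3.18e-20). MATN3 was lower by a log2FC of -0.52 (SE 0.11, edgeR adjusted p = 1.68e-04). The same 4 values after the correction were 2.37, 2.04, 2.57 and -0.52.

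Type 1 repeats, first described in THBS1, also occur in other secreted and membrane proteins. Of 63 such genes 36 were tested, and 16 were higher, 12 lower and 8 not called, with a median log2FC of 0.34. For comparison, 36.5% of all tested genes were higher and 35.9% lower. CILP2 was higher by 1.83 (SE 0.15, edgeR adjusted p = 1.86e-11) and NOV, the matricellular protein also called CCN3, by 1.53 (SE 0.07, edgeR adjusted p = 1.81e-16). UNC5B, a netrin receptor, was higher by 0.67 (SE 0.04, edgeR adjusted p = 1.11e-13). THSD7B went from 221 ± 12.9 to 9.77 ± 4.71 normalized counts (SD, n = 3 each), a log2FC of -4.48 (SE 0.21, edgeR adjusted p = 2.88e-16). RSPO4, a WNT agonist, and ADGRB2, an adhesion receptor, were higher by 0.61 and 0.64 and were at -0.06 and 0.05 after the correction, without a call. CILP2, NOV, UNC5B and THSD7B kept their calls after it, at 1.09, 1.51, 0.21 and -4.35. The list then had 13 higher and 12 lower, with 20 of the calls kept and a median of -0.04. Corrected shares over all tested genes were 31.6% higher and 28.9% lower.

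Among 10 genes described elsewhere as regulators of THBS1, all tested, most of them transcription factors, 6 were higher, 3 lower and 1 not called, with a median log2FC of 0.45. Among all tested genes 36.5% were higher and 35.9% lower. ID1, an inhibitor of basic helix-loop-helix factors, went from 761 ± 46.5 to 5750 ± 105 normalized counts (SD, n = 3 each), a log2FC of 2.92 (SE 0.04, edgeR adjusted p = 1.3e-26). EGR1 was higher by 1.01, USF2 by 0.87 and SP1 by 0.22 (SE 0.05, 0.05 and 0.04). MIR17HG, the host gene of a microRNA cluster that acts on the THBS1 transcript rather than on its transcription, was at -1.06 (SE 0.11, edgeR adjusted p = 2.1e-09). After the correction these 5 were at 2.33, 0.63, 0.31, 0.46 and -0.57. Whether any of these genes acts on THBS1 here was not tested.

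**Figure D5:**
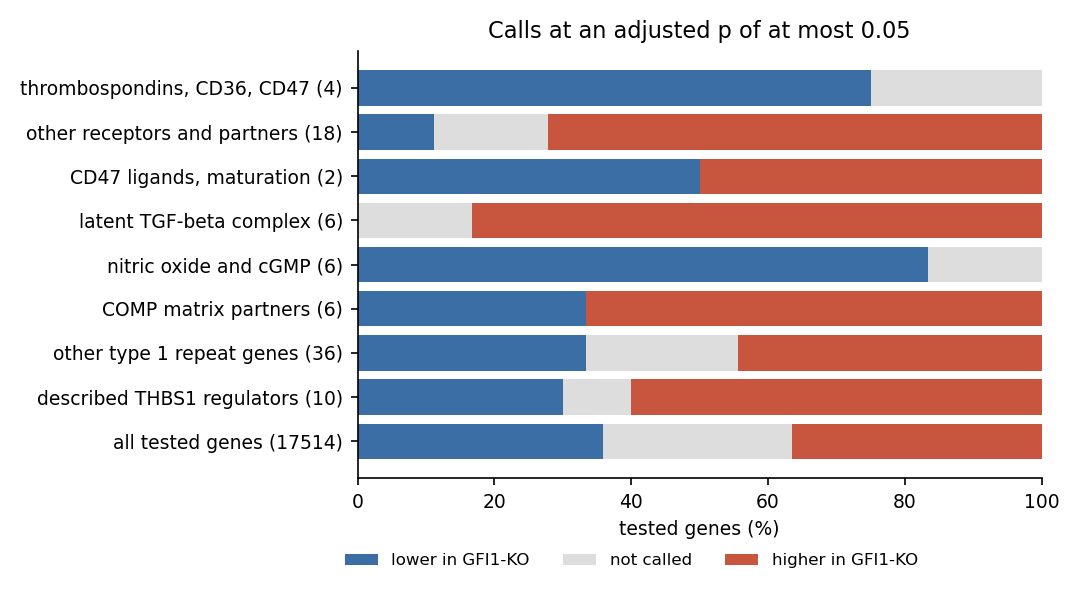
Share of tested genes (%) called lower in GFI1-KO (blue), not called (grey) and called higher (red) at an edgeR adjusted p of at most 0.05, for each gene list, with the number tested in brackets, and for all 17514 tested genes. Over all tested genes 35.9% were lower and 36.5% higher.

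Library totals lay between 14882914 and 17692882 counts. Neuroendocrine markers were present in both groups, among them SYP, a synaptic vesicle protein, with a mean FPKM of 48.8 in WT and 113 in GFI1-KO, and INSM1, a neuroendocrine transcription factor, with 149 and 140. THBS1 is also made by fibroblasts, endothelial cells and platelets, so their markers stand beside it. The summed FPKM of 5 fibroblast markers was 17.5 to 18.0 in WT and 11.4 to 11.8 in GFI1-KO, with DCN at 0 in all libraries and most of the sum from COL1A2 (log2FC -0.54, SE 0.04, edgeR adjusted p = 6.02e-13). PDGFRB, the receptor of fibroblasts and pericytes for platelet-derived growth factor, adds little to that sum but differed most, with 136, 128 and 135 counts in WT and 17, 15 and 15 in GFI1-KO (log2FC -3.24, SE 0.20, edgeR adjusted p = 8.74e-14). The sum of 4 endothelial markers was 3.52 to 3.95 in WT and 1.75 to 1.99 in GFI1-KO, nearly all from PECAM1, with VWF at no more than 2 counts and TEK at no more than 1. The sum of 6 platelet markers was 1.72 to 2.19 in WT and 1.70 to 2.76 in GFI1-KO, with PPBP at 0. Within that sum ITGA2B was called lower (log2FC -1.36, SE 0.30, edgeR adjusted p = 2.1e-04), and GP1BA was not called (0.47, SE 0.23, edgeR adjusted p = 0.0644). Markers of leukocytes, which carry CD36 and SIRPA, summed to at most 0.208 in any library, with CD3E at 0 and no marker above 7 counts. Those of adipocytes summed to at most 0.237, with ADIPOQ and LEP at 0. The part of fibroblast, endothelial or platelet transcripts in the difference of THBS1 was not tested. In bulk RNA, fewer cells that express a gene and less RNA of it per cell cannot be told apart.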

How the data were processed

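RNA-Seq was performed on H1155 cells, 3 libraries labelled WT and 3 labelled GFI1-KO. According to the published methods, poly-T beads were used to select mRNA, and Hisat2 (on GRCh38/hg38) and featureCounts to align and count the reads. The submitters' processing notes in the labels instead name Bowtie2 and HTSeq with hg38, so the aligner and counter are uncertain, and the annotation release, strand setting and treatment of multimapping reads are not given in the sources used here. Raw counts for each gene were deposited by the authors, together with each gene's length, start and end.

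The counts of all 6 libraries were fitted with edgeR 4.0.16 under R 4.3.3 (TMM factors, filterByExpr, quasi-likelihood F test, group only). Benjamini-Hochberg adjustment ran over all 17514 tested genes, and a gene was called at an adjusted p of at most 0.05 with no fold change minimum. FPKM was computed from counts, deposited gene length and TMM effective library size. Library totals of 14882914 to 17692882 counts set the precision. Poisson intervals and the floor of 3 counts cover counting error only, since reads copied by PCR are not independent molecules. Libraries of a group differed by more than sampling noise (chi-square per gene 2.30 to 5.10 between replicate pairs).

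No label links same-numbered libraries of the groups, and their deviations had correlations of -0.00337, 0.0168 and 0.0230, so they were not treated as paired. Alternatives were DESeq2 1.42.0, limma-voom (limma 3.58.1), other scalings and filters, a replicate block, a correction for GC content and length (natural splines with 5 degrees of freedom, per library), stricter thresholds and each library left out. Scripts were tested on simulated data. The genes and the gene lists were chosen with earlier results of these data known. Genes named are all 7, GFI1, up to 4 tested genes of each list with the highest FPKM, the called genes of each list with the largest change in either direction at a mean of at least 100 normalized counts, the 5 profiles closest to THBS1, its neighbours and overlapping genes, and the cell type markers a statement rests on. Promoter sequences came from RefSeq (GRCh38.p14). Some cell type markers are not reported here.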

Additional observations from a re-analysis of the deposited data

How the results depend on the processing

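Of 382 values recomputed under an alternative, 335 kept their direction and their side of the threshold or moved little, 35 moved, 8 lost a call, 2 gained one and 2 changed sign. These values were the log2FC of GFI1 and of the tested genes of the set, and the numbers of calls in each list. The share of THBS1 in the thrombospondin sum and the order of levels were also among them. The number of genes of the set called lower stayed at 3 when GC content and length were corrected for, and the number called higher became 1, CD47, both with that correction alone and with the correction and the replicate block together, against 0 otherwise. The cause was not tested. The 2 values that changed sign were those of GFI1, at -0.032 with the correction (edgeR adjusted p = 0.841) and -0.026 with the correction and the replicate block (edgeR adjusted p = 0.871). Fold changes of single genes of the lists were not counted here. ITGB1, LTBP3, LTBP4 and RSPO4 were among those that changed sign with the correction. The call of GFI1 was also lost with DESeq2 (adjusted p = 0.128), with upper-quartile factors (edgeR adjusted p = 0.0545), and without WT replicate 2, WT replicate 3 or GFI1-KO replicate 2 (edgeR adjusted p = 0.147, 0.0633 and 0.0927).

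The replicate block alone gave log2 fold changes of -1.99 for THBS1, -0.32 for THBS3, -1.96 for THBS4 and 0.05 for CD47, and changed no call among the 4 tested genes of the set. It called 12573 genes against 12680 without it. The libraries share a number only, so the block is no pairing by design.

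Leaving out 1 library at a time, the log2 fold change ranged from -2.00 to -1.98 for THBS1, from -0.38 to -0.25 for THBS3, from -2.25 to -1.79 for THBS4 and from 0.03 to 0.08 for CD47. THBS3 lost its call where a log2 fold change of at least 1 was required, since its change is smaller than that. That minimum left 3068 calls over all genes against 12680. Counted without division by gene length, THBS1 made up 93.3% of the thrombospondin sum in WT and 82.4% in GFI1-KO. Depth limits what can be said of THBS2, COMP and CD36, which had at most 16 counts in any library.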
